A study of Mus musculus with 6 samples.

Results

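The genes described here make cholesterol and fatty acids. They are 32 rows of a table of read counts with 18512 entries, chosen by name as enzymes of lipid synthesis and their regulators. All 32 were found and had enough counts to be tested. RNA came from NMuMG, a line of mouse mammary gland epithelial cells, grown in serum-containing medium and serum-starved before treatment. The 3 groups had 2 replicates each. The first was given the vehicle DMSO, and the second 5 ng/ml TGF-β, a cytokine that drives the epithelial-mesenchymal transition. The third was given 5 ng/ml TGF-β together with 50 uM 2APB (TGF-β+2APB), a modulator of store-operated calcium entry. The study describes 2APB as a blocker of the channels ORAI1 and ORAI2 that raises calcium entry through ORAI3. No group received 2APB alone, so a change on its addition is a change in TGF-β-treated cells. The treatment is described as 24 h, and whether 2APB was added with TGF-β or before it was not settled here. The samples were whole cultures, so fewer cells of a type and less RNA per cell cannot be told apart.

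Mammalian cells build cholesterol from acetyl-CoA through the mevalonate pathway, which also supplies isoprenoids, and then close and trim squalene into sterols. Fatty acids are built from the same acetyl-CoA by carboxylation, elongation and desaturation. Both branches are controlled by the SREBP transcription factors, which are made as precursors in the endoplasmic reticulum. SCAP escorts the precursors to the Golgi for cleavage when sterols are low, and the INSIG proteins hold SCAP back when sterols are high. SREBP-2, the product of Srebf2, is best known for the cholesterol genes and SREBP-1, the product of Srebf1, for the fatty acid genes.

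SREBPs act at promoters together with NF-Y, which binds the letters CCAAT, and Sp1, which binds GC boxes. Of the 32 genes, 26 had a promoter window among the RefSeq (GRCm38.p6) windows used here, and Fdps, Fdft1, Sqle, Scd1, Scd2 and Stard4 had none. The 250 bases before each transcription start were searched on both strands. CCAAT, read as ATTGG on the other strand, was found for 21 of the 26 genes (80.8%), compared with 40.5% of the 10015 tested genes with a window and 37.5% of all 27025 genes. Windows with the GC box GGGCGG belonged to 22 of the 26 genes (84.6%), compared with 62.5% of tested genes and 35.4% of all genes. The sterol element TCACNCCAC occurred for 1 gene, Hmgcs1 (3.85%, against 1.33% of tested genes and 1.22% of all genes), and the E-box CACGTG for 5 genes (19.2%, against 9.49% and 6.86%). A gene was counted if any of its windows held the letters, and the 26 genes had 35 windows. Counted over all 32851 windows rather than over genes, the shares were 33.8% for CCAAT, 32.7% for GGGCGG, 1.05% for TCACNCCAC and 6.02% for CACGTG. Shares over the windows of the lipid synthesis genes were not taken, so these values are not to be set against 80.8% or 84.6%. A match is a run of letters and not a bound site, and the elements were searched separately.

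The windows below are shown for genes on which the results turn. Hmgcs1 holds the sterol element, Msmo1, Mvk and Nsdhl are further genes that were lower when 2APB was added, Acat2 had one of the largest falls and holds none of the marked letters, and Hsd17b7 was the one enzyme of the sterol steps with a large rise. Each run gives the 250 bases before the start, 5′ to 3′ on the gene's strand, with CCAAT or ATTGG and TCACNCCAC in capitals.
Hmgcs1, chr13:119690101-119690350, plus strand: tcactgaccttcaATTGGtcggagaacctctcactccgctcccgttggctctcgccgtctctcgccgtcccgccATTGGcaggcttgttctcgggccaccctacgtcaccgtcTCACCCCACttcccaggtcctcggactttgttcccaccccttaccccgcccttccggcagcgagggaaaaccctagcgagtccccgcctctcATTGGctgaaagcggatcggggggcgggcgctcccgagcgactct
Msmo1, chr8:64733579-64733828, minus strand: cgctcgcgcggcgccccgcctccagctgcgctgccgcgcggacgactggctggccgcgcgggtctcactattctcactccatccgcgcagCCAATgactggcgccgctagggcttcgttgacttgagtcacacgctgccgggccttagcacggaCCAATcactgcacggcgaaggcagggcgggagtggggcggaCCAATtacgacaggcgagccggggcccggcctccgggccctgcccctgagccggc
Mvk, chr5:114444019-114444268, plus strand: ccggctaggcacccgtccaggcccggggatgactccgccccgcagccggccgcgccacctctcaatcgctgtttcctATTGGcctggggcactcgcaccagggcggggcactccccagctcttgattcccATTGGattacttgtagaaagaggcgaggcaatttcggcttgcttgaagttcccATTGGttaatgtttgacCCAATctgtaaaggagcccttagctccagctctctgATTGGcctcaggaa
Nsdhl, chrX:72918271-72918520, plus strand: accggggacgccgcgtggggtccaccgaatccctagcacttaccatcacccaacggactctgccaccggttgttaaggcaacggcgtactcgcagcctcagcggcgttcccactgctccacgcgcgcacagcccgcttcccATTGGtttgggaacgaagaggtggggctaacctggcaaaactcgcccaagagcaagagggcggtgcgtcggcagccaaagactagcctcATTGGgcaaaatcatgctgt
Acat2, chr17:12960726-12960975, minus strand: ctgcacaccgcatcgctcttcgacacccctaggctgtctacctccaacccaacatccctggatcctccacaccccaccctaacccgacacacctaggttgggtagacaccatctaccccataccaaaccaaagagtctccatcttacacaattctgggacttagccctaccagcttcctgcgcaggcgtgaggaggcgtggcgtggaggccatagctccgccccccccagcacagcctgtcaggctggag
Hsd17b7, chr1:169969206-169969455, minus strand: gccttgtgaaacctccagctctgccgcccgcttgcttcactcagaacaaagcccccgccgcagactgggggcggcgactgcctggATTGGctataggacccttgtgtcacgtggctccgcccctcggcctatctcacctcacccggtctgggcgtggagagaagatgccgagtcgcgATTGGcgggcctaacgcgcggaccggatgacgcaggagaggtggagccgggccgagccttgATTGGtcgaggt
In the Hmgcs1 window the sterol element begins 137 bases before the start, between CCAAT letters at 176 and 45 bases. Mvk holds 5 CCAAT matches, the nearest 14 bases from the start. Hsd17b7 holds 3 CCAAT matches, as Msmo1 does.

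**Figure D1:**
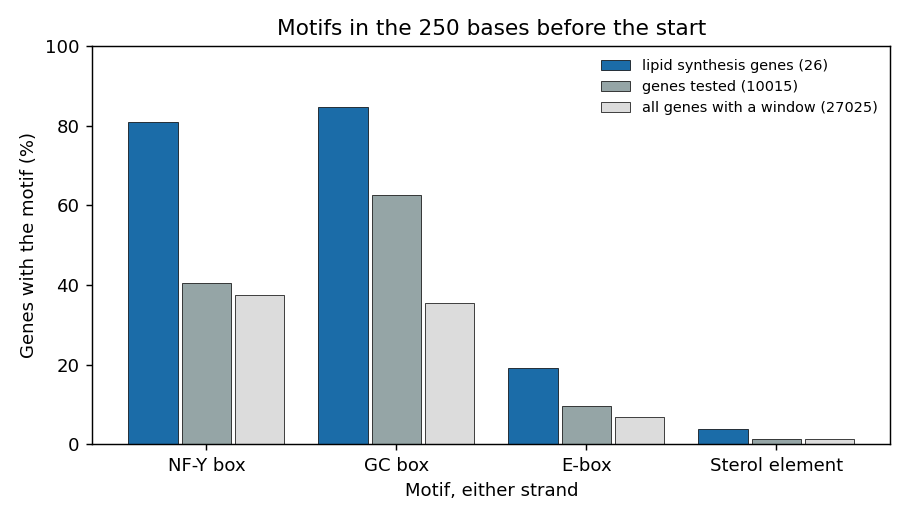
The share of genes, in percent, with each element in the 250 bases before the start, on either strand, for the 26 lipid synthesis genes with a window, for the 10015 tested genes with a window and for all 27025 genes with a window. The NF-Y box, the letters CCAAT, was found for 80.8% of the lipid synthesis genes and 40.5% of the tested genes.

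Total counts ran from 71840570 to 79473182 per library, every deposited value was even, and replicates varied with a biological coefficient of variation of 17.4% over all tested genes. Counts were scaled by edgeR's TMM method and are given as normalized counts. The epithelial keratin Krt18 was abundant in every library, with at least 161096 normalized counts, while Epcam, an epithelial surface marker, stayed between 50.7 and 163. Replicate 2 of TGF-β+2APB stood apart, since the summed normalized count of 6 immune cell markers was 30208 there and 325 in replicate 1, between 397 and 1064 with TGF-β and between 1526 and 4089 in DMSO. Of those markers, the macrophage lysozyme gene Lyz2 alone gave 28684, and the T cell gene Cd3e was at 0 in 5 libraries. The part of these markers in the results was not tested. Between the TGF-β+2APB replicates, log2 differences had an SD of 0.11 over the lipid synthesis genes, compared with 0.78 over all tested genes, whereas the median size of these differences was nearly equal, at 0.091 and 0.097.

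Levels between genes were compared as normalized counts per kilobase of the longest annotated transcript. Exons of Srebf1, Fdft1, Lss, Cyp51, Me1 and Acss2 overlap those of another counted gene on the opposite strand and exons of Tm7sf2 those of Vps51 on the same strand, so the division of reads is uncertain for these genes. In DMSO the stearoyl-CoA desaturase gene Scd2 led with 42760 per kilobase, followed by Me1, the NADPH-making malic enzyme, with 14841. Srebf1 had 6625 and 6349 per kilobase in the DMSO replicates and Acly, the ATP citrate lyase that makes cytosolic acetyl-CoA, 6329 and 6251, so the means of these neighbours differed by less than the Srebf1 replicates did. Srebf2, with 5201, and Fasn, the fatty acid synthase, with 4667, came next. The lowest levels were those of Acss2, an acetyl-CoA synthetase, with 149.9 per kilobase, and of Hsd17b7, a sterol ketoreductase, with 132. Scd2 alone supplied 43.9% to 44.3% of all counts on the 32 genes in DMSO, 31.5% to 32.9% with TGF-β and 27.4% to 28.2% with TGF-β+2APB. By rank within the 32 genes, Srebf1 moved from 3 in DMSO to 9 with TGF-β and 11 with TGF-β+2APB, and Acly from 4 to 2 in both treated groups.

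The 32 genes together took 0.692% to 0.72% of the counts in DMSO, 0.465% to 0.52% with TGF-β and 0.336% to 0.362% with TGF-β+2APB, and the groups did not overlap. The decline of the summed count with TGF-β was larger for the fatty acid genes than for the mevalonate and sterol genes. The summed normalized count of the 8 fatty acid synthesis genes was 381138 and 362642 under DMSO, 260545 and 220140 under TGF-β, and 165197 and 178038 under TGF-β+2APB. For the 7 mevalonate genes it was 38296 and 34551 under DMSO, 33706 and 34023 under TGF-β, and 22583 and 23573 under TGF-β+2APB. For the 11 genes from the making of squalene to cholesterol it was 45032 and 41588 under DMSO, 45104 and 40285 under TGF-β, and 31655 and 32381 under TGF-β+2APB. The fatty acid sums were thus lower in both TGF-β libraries than in DMSO (difference of the means -35.4%). The mevalonate sums differed by less than the DMSO replicates did (-7.03%, with 34551 in the lower DMSO and 34023 in the higher TGF-β library). The sterol sums of TGF-β and DMSO overlapped. All these sums were lowest with TGF-β+2APB. Scd2 weighed heavily on the fatty acid sum with TGF-β, whose difference was -14.2% without it. Me1 weighed on this sum as well, with mean normalized counts of 48858 in DMSO and 22475 with TGF-β. Not all of the 8 fatty acid genes fell. Both TGF-β libraries were below both DMSO libraries for 4 of them (36.5% of all tested genes) and above both for 2 (36.0%). The difference of the sum of all the genes was -13.7% without Scd2 and -28.8% with it. No test was made on the sums.

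**Figure D2:**
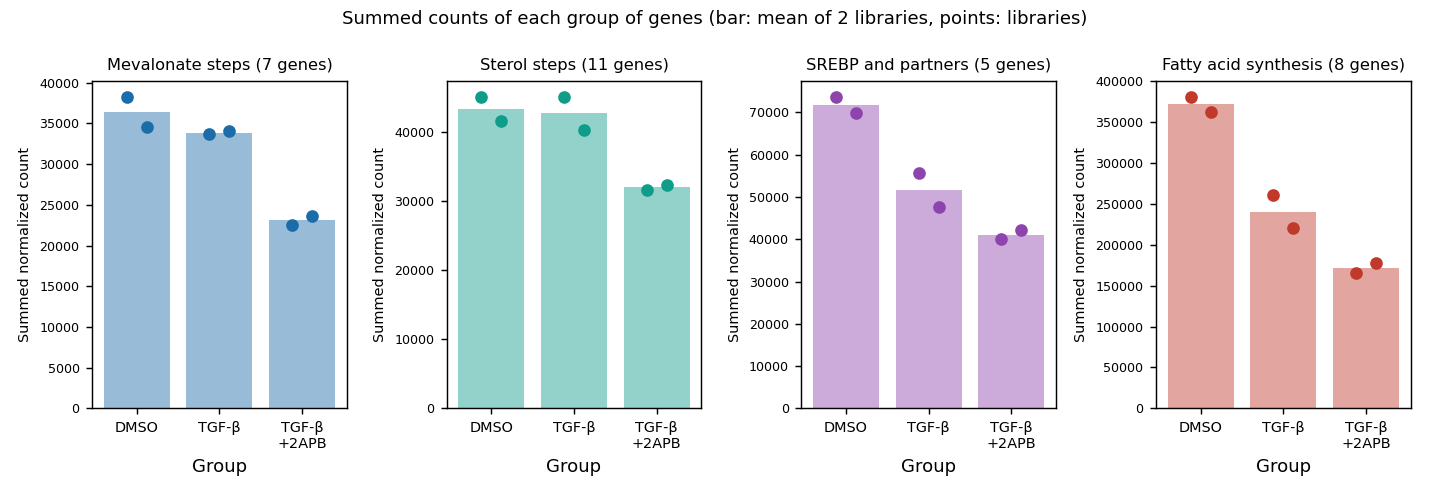
Summed normalized counts of the mevalonate, sterol, SREBP and fatty acid genes in each group, with bars for the mean of the 2 libraries and points for the libraries. The sterol sums of DMSO and TGF-β overlapped (41588 to 45032 and 40285 to 45104) and those of TGF-β+2APB lay below, at 31655 and 32381.

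The first comparison asked how TGF-β changed these genes. With TGF-β against DMSO, 16 of 32 genes were differentially expressed (edgeR quasi-likelihood test, FDR of 0.05 or less), 11 lower and 5 higher. Over all 13355 tested genes, 41.5% were called, 19.7% lower and 21.8% higher, so the share called (50%) was near that of all genes, and 34.4% of the lipid genes were lower. Both TGF-β libraries were below both DMSO libraries for 14 of the 32 genes (36.5% of all tested genes) and above both for 9 (36.0%). The median log2 fold change of the 32 genes was -0.099, compared with -0.010 over all tested genes. The fatty acid branch and Srebf1 held the largest falls, and the cholesterol enzymes were divided. Without replicate 1 of DMSO the number called was 9 of 32, when 20.7% of all genes were called.

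Srebf1 (chromosome 11, 60199089 to 60222581) was counted 28481 and 27295 under DMSO, 11875 and 10047 under TGF-β, and 6719 and 7166 under TGF-β+2APB after normalization. The groups did not overlap, and both TGF-β libraries were below both DMSO libraries. Its log2 fold change with TGF-β was -1.35 (edgeR FDR 0.000373, SE 0.10). The counts do not separate the isoforms of Srebf1, which start at different promoters. Srebf2 (chromosome 15, 82147181 to 82205379) had normalized counts of 27196 and 25614 under DMSO, 26627 and 21995 under TGF-β, and 14193 and 16004 under TGF-β+2APB. Its DMSO and TGF-β libraries overlapped, and the log2 fold change with TGF-β was -0.12 (edgeR FDR 0.455, SE 0.12). Insig1 and Insig2, which retain the SCAP complex in the endoplasmic reticulum, were both lower with TGF-β, at log2 fold changes of -0.40 (edgeR FDR 0.0211, SE 0.096) and -0.48 (edgeR FDR 0.00259, SE 0.064). The call of Insig1 was kept in 9 of 15 alternatives and that of Insig2 in 15 of 15. Scap, the escort protein (chromosome 9, 110333288 to 110384950), was counted 6901 and 6751 under DMSO, 8967 and 7882 under TGF-β, and 9471 and 9991 under TGF-β+2APB. It was higher with TGF-β, at 0.30 (edgeR FDR 0.0395, SE 0.089), a call kept in 7 of 15 alternatives.

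In the fatty acid branch, Scd2 (chromosome 19, 44293674 to 44306864) gave normalized counts of 240832 and 225683 under DMSO, 132262 and 110478 under TGF-β, and 72417 and 79392 under TGF-β+2APB. Its paralog Scd1 (chromosome 19, 44394455 to 44407879) was far less abundant, at 2018 and 1844 under DMSO, 902 and 781 under TGF-β, and 553 and 659 under TGF-β+2APB. Both desaturases fell, with log2 fold changes of -0.94 (edgeR FDR 0.00151, SE 0.11) and -1.20 (edgeR FDR 0.00135, SE 0.13). Me1 (chromosome 9, 86581371 to 86695953), whose normalized counts were 49197 and 48519 under DMSO, 24778 and 20172 under TGF-β, and 17198 and 18296 under TGF-β+2APB, changed by -1.12 (edgeR FDR 0.000945, SE 0.11). Acss2 (chromosome 2, 155517948 to 155585724), which makes acetyl-CoA from acetate, was counted 584 and 498 under DMSO, 253 and 193 under TGF-β, and 81.2 and 101 under TGF-β+2APB after normalization. Its change was -1.28 (edgeR FDR 0.00593, SE 0.21), the largest fall of the branch, although exons of Gss, Ggt7 and an antisense gene overlap those of Acss2 and the strand setting of the counting was not given. Of Acly, Acaca, Fasn and Elovl6, the genes for citrate cleavage, malonyl-CoA, palmitate and its elongation, 1 was called. Acaca, the acetyl-CoA carboxylase of the committed step (chromosome 11, 84129672 to 84401651), was counted 10301 and 10233 under DMSO, 14251 and 13069 under TGF-β, and 11656 and 12018 under TGF-β+2APB. All treated libraries were above DMSO, and the change with TGF-β was 0.41 (edgeR FDR 0.00761, SE 0.074). Fasn was at 47875 and 45920 under DMSO, 50530 and 41859 under TGF-β, and 34383 and 37482 under TGF-β+2APB, with overlapping DMSO and TGF-β libraries and a change of -0.022 (edgeR FDR 0.89, SE 0.11). Acly and the elongase Elovl6 were not called either, at 0.23 (edgeR FDR 0.0923, SE 0.091) and 0.33 (edgeR FDR 0.244, SE 0.20).

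Among the mevalonate enzymes, Pmvk, the phosphomevalonate kinase (chromosome 3, 89454541 to 89469013), was the only one called with TGF-β in this fit. Its normalized counts were 1373 and 1387 under DMSO, 840.0 and 712 under TGF-β, and 917 and 902 under TGF-β+2APB, and its log2 fold change -0.83 (edgeR FDR 0.00246, SE 0.11) was called in 15 of 15 alternatives. Hmgcs1, the HMG-CoA synthase that opens the pathway, was not called, at -0.079 (edgeR FDR 0.597, SE 0.11). The remaining 5, Acat2, Mvk, Mvd, Idi1 and Fdps, had log2 fold changes between -0.39 and 0.36, none called.

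The sterol steps went both ways. Hsd17b7 (chromosome 1, 169949535 to 169969241) had the largest change of all 32 genes with TGF-β, with normalized counts of 618 and 597 under DMSO, 1635 and 1657 under TGF-β, and 1525 and 1565.5 under TGF-β+2APB. The lowest treated library stood at 1525 and the higher DMSO library at 618, and the log2 fold change was 1.44 (edgeR FDR 0.000141, SE 0.080). Msmo1, the methylsterol oxidase, was higher, at 0.47 (edgeR FDR 0.015, SE 0.10). Dhcr7, which performs the last reduction to cholesterol (chromosome 7, 143823145 to 143848410), was lower, at 3782 and 3638 under DMSO, 2425 and 1852 under TGF-β, and 1630.3 and 1808 under TGF-β+2APB. Dhcr7 changed by -0.79 (edgeR FDR 0.00698, SE 0.14). Lss, the lanosterol synthase, and Sc5d, the sterol desaturase, were lower, at -0.49 (edgeR FDR 0.0149, SE 0.11) and -0.27 (edgeR FDR 0.0326, SE 0.074), the second a call kept in 8 of 15 alternatives. Fdft1, Sqle, Cyp51, Tm7sf2, Nsdhl and Ebp were not called, with log2 fold changes between -0.38 and 0.21. Stard4, which carries cholesterol between membranes, rose by 0.56 (edgeR FDR 0.00273, SE 0.076).

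Liver-type genes moved in the same comparison. The summed normalized count of 10 hepatocyte markers was 94217 and 85296 under DMSO, 1298 and 693.5 under TGF-β, and 155 and 188 under TGF-β+2APB. Albumin (Alb) alone fell from 31588 and 28837 to 93.6 and 41.5, and all 7 of the 10 markers with enough counts were called lower. None of the 10 was at 0 in every library, but Ahsg was counted at most 9.83 times after normalization. Liver cells also use the lipid synthesis genes, and the part of these markers in their changes was not tested.

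**Figure D3:**
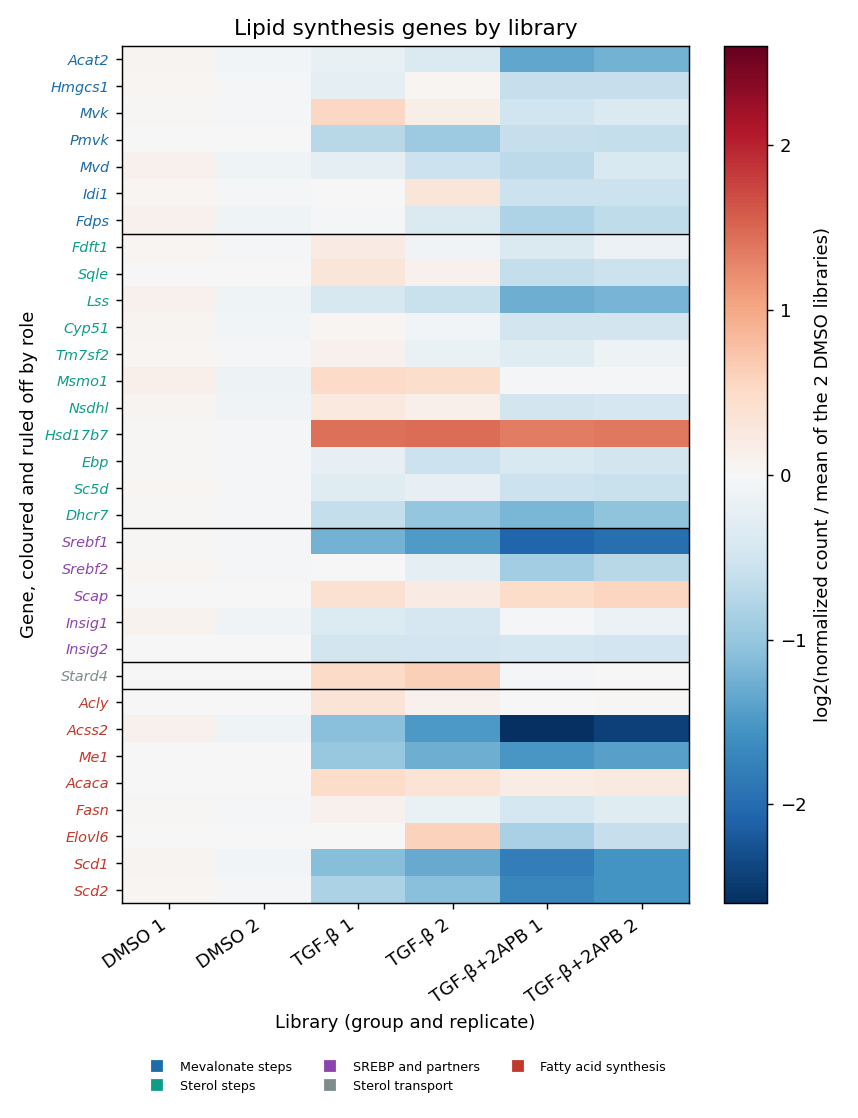
Log2 ratio of each gene's normalized count to the mean of the 2 DMSO libraries (colour) for the 32 genes (rows, grouped by role) in the 6 libraries (columns). Scd1, Scd2, Me1, Acss2 and Srebf1 were below DMSO in all 4 treated libraries, Hsd17b7 was above it in all 4, and most mevalonate and sterol genes had their lowest values in the TGF-β+2APB libraries.

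The second comparison asked what 2APB added to TGF-β. With TGF-β+2APB against TGF-β alone, 16 of 32 lipid synthesis genes (50%) were called lower and none higher by edgeR's quasi-likelihood test, where 10.9% of all tested genes were called lower, 6.58% higher and 17.5% in either direction. At an unadjusted p under 0.05, 23 of the 32 genes passed, all of them lower except Insig1, as did 33.5% of all tested genes. DESeq2 called 20 lower and 1 higher, where it called 14.3% of all genes lower and 25.3% in either direction. The median log2 fold change was -0.47, compared with -0.0036 over all tested genes, and 28 of 32 fitted values were below 0. In 25 of the 32 genes both TGF-β+2APB libraries were below both TGF-β libraries, as in 31.0% of all tested genes, and in 3 both were above both, as in 27.0%. The genes called came from every role: 4 of 7 mevalonate genes, 6 of 11 sterol genes, 2 of 5 SREBP genes, Stard4, and 3 of 8 fatty acid genes.

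The number called differed with the libraries in the fit. It was 2 of 32 without replicate 1 of TGF-β+2APB (3.77% of all genes lower), 8 without its replicate 2 (6.30%), 7 without replicate 1 or 2 of DMSO (3.83% and 3.72%), 20 without replicate 1 of TGF-β, 18 of them lower (15.2%), and 25 without replicate 2 of TGF-β (21.9%), while a fit of only the 4 libraries compared called 7 (3.73%). The 2 genes called in all 15 alternatives were Acat2 and Sqle. No called gene changed sign in any alternative. Without replicate 2 of TGF-β+2APB, the library with the immune markers, the log2 fold changes of the 16 genes lay between -1.46 for Acss2 and -0.29 for Sc5d. Hmgcs1, Mvk, Idi1, Cyp51, Msmo1, Sc5d, Srebf1 and Scd2 then lost their calls, with edgeR FDR values from 0.0502 for Scd2 to 0.228 for Sc5d.

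Acat2, the cytosolic thiolase that joins acetyl-CoA units at the head of the pathway (chromosome 17, 12942890 to 12960747), had normalized counts of 2321 and 2082 under DMSO, 1937 and 1688 under TGF-β, and 868 and 934 under TGF-β+2APB. Both TGF-β+2APB libraries were below every other library, and the log2 fold change against TGF-β was -1.01 (edgeR FDR 0.00563, SE 0.11). Acat2 has a close copy, Acat3, counted between 160 and 474 times per library, and how reads shared by the copies were assigned was not given. Sqle, the squalene epoxidase and a control point of the pathway (chromosome 15, 59315077 to 59331192), was counted 5078 and 5050.1 under DMSO, 6268 and 5477 under TGF-β, and 3306 and 3427 under TGF-β+2APB. It was highest with TGF-β and lowest with TGF-β+2APB, without overlap, and changed by -0.80 (edgeR FDR 0.00581, SE 0.087).

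Hmgcs1 (chromosome 13, 119690379 to 119708260) was counted 14270 and 13162 under DMSO, 11733 and 14229 under TGF-β, and 9090.5 and 9061 under TGF-β+2APB after normalization. The DMSO and TGF-β libraries overlapped and the TGF-β+2APB libraries lay below both. Its log2 fold change was -0.52 (edgeR FDR 0.0301, SE 0.11), a call kept in 8 of 15 alternatives. Idi1, the isomerase that makes the activated isoprene unit (chromosome 13, 8885501 to 8892451), showed the same order, at 4985 and 4678 under DMSO, 4783 and 5994 under TGF-β, and 3294 and 3275 under TGF-β+2APB, with a change of -0.71 (edgeR FDR 0.0161, SE 0.12). Mvk, the mevalonate kinase (chromosome 5, 114444269 to 114460591), was counted 1439.6 and 1377 under DMSO, 2046.5 and 1557 under TGF-β, and 979 and 1089.7 under TGF-β+2APB, and its change was -0.80 (edgeR FDR 0.0201, SE 0.15). Of the other mevalonate genes, Fdps, the farnesyl diphosphate synthase, was below TGF-β in both libraries, at -0.54 (edgeR FDR 0.0528, SE 0.14), and Mvd and Pmvk gave -0.15 (edgeR FDR 0.576, SE 0.16) and 0.23 (edgeR FDR 0.203, SE 0.11), none of them called.

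In the sterol steps all 11 fitted changes were below 0. Lss (chromosome 10, 76531588 to 76557138) fell in both steps, with normalized counts of 3192 and 2733 under DMSO, 2222 and 1993 under TGF-β, and 1220.3 and 1283 under TGF-β+2APB. Adding 2APB changed it by -0.75 (edgeR FDR 0.011, SE 0.11). Nsdhl, a sterol dehydrogenase of the demethylation steps (chromosome X, 72918557 to 72958514), was counted 3556 and 3167 under DMSO, 3988 and 3675 under TGF-β, and 2425 and 2475.5 under TGF-β+2APB, and Cyp51, the lanosterol demethylase (chromosome 5, 4081145 to 4104746), 7306 and 6644 under DMSO, 7178 and 6686 under TGF-β, and 5012 and 5038 under TGF-β+2APB. For neither gene did TGF-β alone give a called change, and with 2APB they were lower, at -0.65 (edgeR FDR 0.00915, SE 0.086) and -0.46 (edgeR FDR 0.0184, SE 0.083). Msmo1 (chromosome 8, 64718139 to 64733792) rose and fell, at 4761 and 3954.5 under DMSO, 6132 and 5940.4 under TGF-β, and 4271 and 4213 under TGF-β+2APB. It changed by -0.51 (edgeR FDR 0.0257, SE 0.10) when 2APB was added, and its TGF-β+2APB libraries lay between the DMSO libraries. Sc5d (chromosome 9, 42251595 to 42264256) was at 3744 and 3506 under DMSO, 2902 and 3114.5 under TGF-β, and 2468 and 2434 under TGF-β+2APB, and its change of -0.30 (edgeR FDR 0.0476, SE 0.074) was called in 5 of 15 alternatives. The uncalled sterol genes were Fdft1, Tm7sf2, Hsd17b7, Ebp and Dhcr7, with log2 fold changes between -0.33 and -0.055.

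Stard4 (chromosome 18, 33199355 to 33213862) was counted 5347 and 5257 under DMSO, 7529 and 8137 under TGF-β, and 5111 and 5342 under TGF-β+2APB. The TGF-β libraries were above all others, and the TGF-β+2APB libraries lay within or beside the range of DMSO. The change on adding 2APB was -0.58 (edgeR FDR 0.00842, SE 0.076), after a rise of 0.56 with TGF-β. These steps share the TGF-β libraries, so the rise and the fall are not independent of each other. Set against DMSO, TGF-β+2APB gave -0.021 (edgeR FDR 0.837, SE 0.076) for Stard4 and -0.039 (edgeR FDR 0.772, SE 0.10) for Msmo1, neither called.

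Both SREBP genes were lower with 2APB than with TGF-β alone. Srebf2 changed by -0.69 (edgeR FDR 0.0168, SE 0.12) and Srebf1 by -0.66 (edgeR FDR 0.0126, SE 0.10). The genes for their escort and anchors were not called in this step, with log2 fold changes of 0.21 (edgeR FDR 0.166, SE 0.088) for Scap, 0.31 (edgeR FDR 0.084, SE 0.096) for Insig1 and 0.0033 (edgeR FDR 0.979, SE 0.064) for Insig2. Insig1 was above TGF-β in both TGF-β+2APB libraries, with normalized counts of 7735 and 6803 under DMSO, 5644 and 5379.8 under TGF-β, and 7139 and 6507 under TGF-β+2APB. Those libraries overlapped the DMSO libraries. The libraries of both treatments overlapped for Insig2, at 3419.9 and 3415 under DMSO, 2459.7 and 2433.5 under TGF-β, and 2484 and 2420.2 under TGF-β+2APB.

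Of the fatty acid genes, Scd2, Acss2 and Elovl6 were called lower with 2APB. Scd2 changed by -0.68 (edgeR FDR 0.0139, SE 0.11) and Acss2 by -1.29 (edgeR FDR 0.0169, SE 0.22), in each case on top of the fall with TGF-β. Elovl6, which lengthens palmitate (chromosome 3, 129532355 to 129638495), was counted 2317 and 2280.1 under DMSO, 2306 and 3465 under TGF-β, and 1278 and 1524 under TGF-β+2APB. Its TGF-β replicates differed more than those of any other of the 32 genes, and the change was -1.04 (edgeR FDR 0.0232, SE 0.20). The remaining 5 were below TGF-β in both libraries without being called, at -0.47 (edgeR FDR 0.0624, SE 0.13) for Scd1, -0.36 (edgeR FDR 0.0734, SE 0.11) for Fasn, -0.34 (edgeR FDR 0.0907, SE 0.11) for Me1, -0.22 (edgeR FDR 0.159, SE 0.091) for Acly and -0.21 (edgeR FDR 0.116, SE 0.074) for Acaca.

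**Figure D4:**
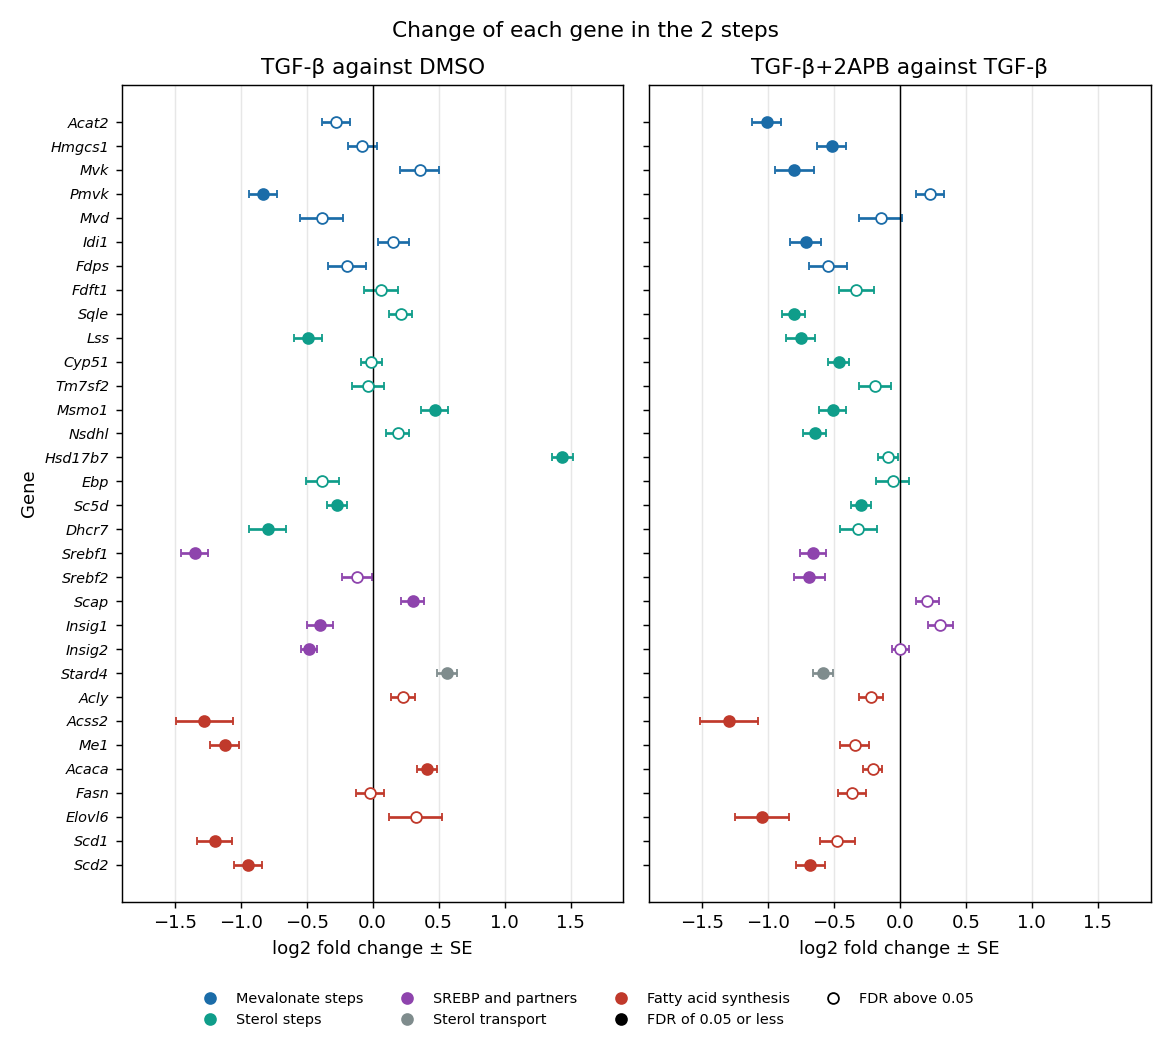
Log2 fold change (edgeR, error bars ± SE) of each of the 32 genes with TGF-β against DMSO and under TGF-β+2APB against TGF-β, filled where the FDR was 0.05 or less. In the first panel 11 filled points lie below 0 and 5 above, and in the second 16 lie below 0 and none above.

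The third comparison set TGF-β+2APB against DMSO. By edgeR's test 25 of 32 genes were called, 23 lower (71.9%) and 2 higher, where 52.7% of all tested genes were called, 27.2% lower and 25.6% higher. Both TGF-β+2APB libraries were below both DMSO libraries for 25 genes (43.8% of all tested genes) and above both for 3 (42.3%). Without replicate 1 of DMSO the number was 15, when 32.8% of all genes were called. Without replicate 2 of TGF-β+2APB it was 20, when 40.1% were, and Mvk, Mvd, Nsdhl, Ebp and Fasn lost their calls, with edgeR FDR values from 0.0529 to 0.174. All 7 mevalonate genes were lower, with log2 fold changes from -1.29 for Acat2 to -0.45 for Mvk. Of the 11 sterol genes, 7 were lower, led by Lss at -1.24 (edgeR FDR 0.000376, SE 0.11) and Dhcr7 at -1.11 (edgeR FDR 0.00146, SE 0.14), and Hsd17b7 was higher at 1.35 (edgeR FDR 0.000103, SE 0.080). Scap was the other gene called higher, at 0.51 (edgeR FDR 0.0048, SE 0.089). Srebf1 stood at -2.01 (edgeR FDR 7.09e-05, SE 0.10) and Srebf2 at -0.81 (edgeR FDR 0.00244, SE 0.12). Acss2, with -2.57 (edgeR FDR 0.000383, SE 0.23), had the largest change of the set, followed by Srebf1, Scd1 at -1.67 and Scd2 at -1.62. Acly stood at 0.013 (edgeR FDR 0.915, SE 0.091), with overlapping libraries, and it, Fdft1, Tm7sf2, Msmo1, Insig1, Stard4 and Acaca were not called. This comparison shares its libraries with the others and is no independent check of them.

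Genes with CCAAT in the window were compared with the others as a description. With 2APB added, 10.9% of all tested genes were called lower. Of the lipid synthesis genes, 11 of 21 with CCAAT were called lower, with a median log2 fold change of -0.36, and 2 of 5 without it, with a median of -0.22. For CACGTG it was 1 of 5 genes with the letters, median -0.091, and 12 of 21 without them, median -0.51. No test was made on these shares, and sets of 5 genes are too small to tell genes with and without the letters apart.

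Neighbouring pathways were taken from lists of related genes. Of 13 genes that use isoprenoids downstream of Fdps, 1 was lower with 2APB and none higher, the ubiquinone synthesis gene Coq2, at -0.40 (edgeR FDR 0.0276, SE 0.082), and the median of the list was 0.13. With TGF-β against DMSO, 2 of the 13 were higher (15.4%, against 21.8% of all tested genes) and 1 lower (7.69%, against 19.7%). They were led by the methyltransferase gene Icmt, at 0.65 (edgeR FDR 0.0021, SE 0.081), and the farnesyltransferase subunit gene Fnta, at -0.70 (edgeR FDR 0.0038, SE 0.10). Of 11 genes for cleavage and turnover of the SREBP complex, 1 was lower with 2APB, Erlin2, at -0.63 (edgeR FDR 0.0118, SE 0.093), with a list median of -0.14. In that list TGF-β gave 2 higher and 2 lower (18.2% each, against 21.8% and 19.7% of all tested genes). They were led by the ubiquitin ligase gene Rnf145 at 1.17 (edgeR FDR 0.000317, SE 0.084) and by Pgrmc1 at -0.80 (edgeR FDR 0.000443, SE 0.063). The single calls with 2APB, 7.69% and 9.09% of the lists, are near the 10.9% of all genes called lower. The difference of these lists from the synthesis genes was not tested.

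Of 14 genes of sterol trafficking and storage, TGF-β gave 7 lower (50%) and 4 higher (28.6%), where 19.7% and 21.8% of all tested genes were. Soat2, which esterifies cholesterol for storage, was counted 2889 and 2826 under DMSO, 594 and 548 under TGF-β, and 327 and 413 under TGF-β+2APB. It was lower with TGF-β, at -2.32 (edgeR FDR 0.000156, SE 0.13), and again with 2APB, at -0.63 (edgeR FDR 0.0286, SE 0.13). The cholesterol exporter gene Abca1 had the largest fall with TGF-β, at -3.12 (edgeR FDR 0.0131, SE 0.65), and the lipoprotein receptor ligase gene Mylip the largest rise, at 1.82 (edgeR FDR 0.00669, SE 0.32). With 2APB added, 2 of the 14 were called lower and 1 higher (10.9% and 6.58% of all genes), the higher one being the lysosomal cholesterol exporter gene Npc1, at 0.45 (edgeR FDR 0.0202, SE 0.084), whose normalized counts were 4165 and 4124 under DMSO, 6547 and 5793 under TGF-β, and 8354 and 8562 under TGF-β+2APB. Npc1 was highest under TGF-β+2APB, without overlap. The other gene called lower was Tmem97, a sterol-responsive membrane protein gene named after its values were seen, at -0.62 (edgeR FDR 0.0229, SE 0.12).

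Of 24 further genes of fatty acid and glycerolipid synthesis, 22 were tested. With TGF-β 9 were lower and 3 higher (40.9% and 13.6%, against 19.7% and 21.8% of all genes), led by Dgat2, which makes triglyceride, at -2.84 (edgeR FDR 0.000268, SE 0.19), and Fads3, of the desaturase family, at 1.13 (edgeR FDR 0.000406, SE 0.087). Dgat2 was counted 9017 and 8157 under DMSO, 1355 and 1049 under TGF-β, and 1153 and 1549.7 under TGF-β+2APB, and the libraries of both treatments overlapped. With 2APB added, 6 of the 22 were lower (27.3%, against 10.9% of all genes) and none higher, and the largest change was that of Mlxipl, the gene of the carbohydrate-response factor ChREBP, at -1.72 (edgeR FDR 0.0148, SE 0.28), with normalized counts of 212 and 167 under DMSO, 64.3 and 60.2 under TGF-β, and 17.8 and 19.7 under TGF-β+2APB. The other 5 called lower with 2APB were the acetoacetyl-CoA synthetase gene Aacs, Mid1ip1, which activates acetyl-CoA carboxylase, the elongase gene Elovl7 and the acyl-CoA synthetase genes Acsl4 and Acsl5, with log2 fold changes from -0.95 for Mid1ip1 to -0.39 for Acsl5. The median log2 fold change of the list with 2APB was -0.13, compared with -0.47 for the 32 synthesis genes.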

How the data were processed

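The study sequenced 50 base single-end reads of oligo-dT selected RNA from 6 libraries, 3 groups of 2 biological replicates. Its methods name FastQC, TopHat and featureCounts, and the submitters' processing notes name FastQC 0.11.2, TopHat2 2.0.13, DESeq2 1.6.1 and the build mm10, whereas the methods text names hg19. The symbols are those of mouse genes. The authors deposited read counts per gene. Every value was even, and the total of every library was above the average number of reads per sample that the study states. The values may therefore not be numbers of reads, and whether the counts had been scaled was not settled here. Halved counts were among the alternatives. The annotation, the strand setting and the treatment of reads with several alignments are not given in the sources used here. Total counts were 71840570 to 79473182 per library.

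Counts were scaled by TMM and fitted in edgeR 4.0.16 (R 4.3.3, with limma 3.58.1) in 1 quasi-likelihood model of the 3 groups, over the 13355 genes whose normalized counts averaged 20 or more. Pairs of groups were compared by the quasi-likelihood F-test with Benjamini-Hochberg FDR of 0.05 or less over all genes tested, the minimum count and threshold of the study. The SE was taken as the size of the log2 fold change over the square root of F. The study used DESeq2, which is an alternative here (version 1.42.0). The procedure was tested on simulated data. The p-values rest on a spread between replicates that was pooled over the 3 groups of 2 and drawn toward that of other genes. They do not measure the spread within the compared groups alone.

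Positions and transcript lengths came from GENCODE M21 and promoter windows from RefSeq, both GRCm38, matched by symbol for all 32 and for 26 of the 32 genes. In 32 of the 35 windows of these genes the last 25 bases lie within the start of an annotated transcript. Tables and plots used Python 3.11.15, pandas 2.3.3 and matplotlib 3.10.9.

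The 32 genes and the other lists were chosen with earlier results of these data known. A gene called with TGF-β or on adding 2APB was to be given in every library and the others by range, and of each related list the called gene with the largest change in each direction. Alternatives were DESeq2 without a fold change prior, RLE or library size scaling, no filter, only the 4 libraries compared, the replicate number as a block, an FDR of 0.01, halved counts and each library left out. A crossed block was added after seeing the data.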

Additional observations from a re-analysis of the deposited data

How the results depend on the processing

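The number of the 32 genes called with TGF-β against DMSO was 16, and 13 to 18 under the alternatives that left out no replicate, other than an FDR of 0.01, which gave 11. With 1 library left out it ran from 9 to 23. For TGF-β+2APB against TGF-β it was 16, moved to 7 in the fit of only the 4 libraries compared and to 4 with an FDR of 0.01, stayed between 14 and 21 in the others, and ran from 2 to 25 with 1 library left out. For TGF-β+2APB against DMSO it was 25, between 19 and 27 with every replicate kept and from 15 to 28 with 1 left out. The cause of these moves was not tested, except that the FDR of 0.01 is stricter by construction. Fits with fewer libraries gave both lower and higher numbers. Scaling by library size moved the median log2 fold change of all tested genes to -0.039, -0.039 and -0.068 in the 3 comparisons in the same order.

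The replicate number as a block gave 15, 14 and 23 called genes in the 3 comparisons, of which 14, 14 and 23 were also called without it. Of all tested genes, 35.5%, 10.1% and 47.6% were called with the block. Across genes, the replicate differences of DMSO correlated with those of TGF-β at r = 0.15 and with those of TGF-β+2APB at r = -0.46, and those of both treatments with each other at r = -0.26, so the samples were taken to share only a number. Exchanging the numbers of the TGF-β+2APB replicates in the block, chosen after seeing the data, gave 18, 18 and 26. Of all tested genes, 42.7%, 18.5% and 54.2% were then called.

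No called gene changed sign in any of the 15 alternatives. Among uncalled genes, library size scaling gave -0.032 for Insig2 against TGF-β and -0.050 for Acly against DMSO, both with 2APB, and the fit of only the 4 libraries gave 0.016 for Cyp51 and 0.0042 for Fasn between TGF-β and DMSO. With 1 library left out, log2 fold changes that crossed 0 were, for TGF-β against DMSO, -0.23 to 0.059 for Hmgcs1, -0.015 to 0.32 for Idi1, -0.091 to 0.21 for Fdft1, -0.076 to 0.061 for Cyp51, -0.18 to 0.10 for Tm7sf2, -0.26 to 0.012 for Srebf2 and -0.16 to 0.11 for Fasn. For TGF-β+2APB against TGF-β they were -0.30 to 0.020 for Mvd, -0.22 to 0.13 for Ebp and -0.046 to 0.019 for Insig2, and against DMSO -0.17 to 0.10 for Msmo1, -0.18 to 0.0042 for Insig1 and -0.033 to 0.0050 for Stard4.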

Other observations

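Further genes of lipid handling differed between the replicates of TGF-β+2APB. Abcg1, a cholesterol exporter, was counted 33.4 and 14.5 under DMSO, 29.2 and 16.6 under TGF-β, and 31.7 and 306 under TGF-β+2APB after normalization, and Abca1 1774 and 1883 under DMSO, 224 and 197 under TGF-β, and 29.7 and 166 under TGF-β+2APB. The fatty acid binding protein gene Fabp4 was counted 15.7 and 4.13 under DMSO, 3.90 and 2.08 under TGF-β, and 3.96 and 88.8 under TGF-β+2APB. All 3 were higher in TGF-β+2APB replicate 2 than replicate 1, as were Lyz2 (28684 and 156), the leukocyte gene Ptprc (742 and 35.7) and the macrophage genes Cd68 (619.9 and 119) and Adgre1 (128 and 1.98), in that order of replicates. Nr1h3, the gene of the sterol-sensing receptor LXRα, was counted 3189.8 and 3030.5 under DMSO, 1167.5 and 885 under TGF-β, and 608 and 861 under TGF-β+2APB and changed by -1.60 (edgeR FDR 0.00234, SE 0.21) with TGF-β. These genes were named after their values were seen.

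Of 7 adipocyte genes, 4 were analysed, with summed normalized counts of 2155 and 2049 in DMSO, 850 and 704 under TGF-β, and 515 and 784 under TGF-β+2APB, mostly from Pparg, and Adipoq was at or below 2.07 in every library. Of 6 milk secretion genes, 2 were analysed, with sums from 9.83 to 105. The 5 fibroblast genes analysed of 6 had sums of 142 and 163 in DMSO and 2335 to 3104 in the treated libraries, mostly from Col1a1 and Pdgfrb, while Dcn and Thy1 were counted at most 5.92 times after normalization. All 6 TGF-β response genes on the list were higher with TGF-β, with log2 fold changes from 0.75 to 7.97. Of the 6 epithelial genes, 3 were higher and 3 lower with TGF-β.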
